A study of Mus musculus with 8 samples.

Results

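Regions of open chromatin that lie at the end of a protein-coding gene, but that were called in some ATAC-seq libraries only, numbered 2025 of 32720 merged regions. They were chosen by merging the peaks of 8 libraries that overlapped by at least 1 bp on the autosomes and X. A region was kept when 2 to 6 of the 8 peak lists held a peak there and the summit of its peak of highest fold enrichment lay within 1 kb of either end of a protein-coding gene. The number of lists, the distance to a gene end and the highest fold thus chose the regions or their summit, and these values are given as descriptions. The cells were GFP-positive mouse leukaemia cells sorted from the bone marrow of leukaemic mice, labelled C57BL/7, in which the MLL-AF9 fusion drives the leukaemia and doxycycline can switch on Klf4 from a TetO-Klf4 construct. All groups share the fusion and the construct. They were collected at 0h, 6h, 12h and 24h, with 2 libraries per time, and the study asked how accessibility changed as induced Klf4 eliminated leukaemic cells. The labels do not say whether 0h cells had received doxycycline, what age the mice were, or whether the libraries of 1 time came from separate mice, so the p-values speak only of the spread among these libraries, possibly technical.

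ATAC-seq uses a transposase that inserts sequencing adapters into DNA not covered by nucleosomes, and a peak marks a stretch with more insertions than its surroundings. The start of an active gene is usually the most open part of it, where transcription factors and RNA polymerase bind, and starts rich in CpG dinucleotides tend to be open in most cell types. KLF4 is a zinc-finger transcription factor that binds GC-rich and CACCC-containing DNA, and in blood it is known for driving monocyte differentiation.

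Upstream sequences are shown for 5 of these regions whose summit fell in the RefSeq promoter window of a gene on GRCm38.p6. They were picked for their call patterns: Smyd5 and Rapgef1 were called at every time after 0h only, Tmem231 and Ddx47 had no peak at 24h, and Haus5 had a peak at 12h only. Each runs 5′ to 3′ over the 250 bases before the start, and capitals mark matches, on either strand, to GGGNGTGG (KLF), GGGCGG (GC box), CCGGAAGT (ETS), TGACGTCA (CRE), the NRF1 site, TGANTCA (AP-1) or the letters CCAAT, the last added after seeing the data.
Smyd5, chr6:85431726-85431975, plus strand: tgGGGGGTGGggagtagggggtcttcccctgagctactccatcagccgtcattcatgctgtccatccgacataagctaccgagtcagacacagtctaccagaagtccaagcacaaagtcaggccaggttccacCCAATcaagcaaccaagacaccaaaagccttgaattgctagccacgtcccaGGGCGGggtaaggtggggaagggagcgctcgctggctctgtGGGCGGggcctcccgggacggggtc
Rapgef1, chr2:29619470-29619719, plus strand: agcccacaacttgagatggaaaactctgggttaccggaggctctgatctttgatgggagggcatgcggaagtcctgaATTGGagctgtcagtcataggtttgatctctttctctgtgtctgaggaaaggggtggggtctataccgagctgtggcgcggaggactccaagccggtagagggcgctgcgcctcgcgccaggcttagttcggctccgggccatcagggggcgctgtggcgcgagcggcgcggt
Tmem231, chr8:111933814-111934063, minus strand: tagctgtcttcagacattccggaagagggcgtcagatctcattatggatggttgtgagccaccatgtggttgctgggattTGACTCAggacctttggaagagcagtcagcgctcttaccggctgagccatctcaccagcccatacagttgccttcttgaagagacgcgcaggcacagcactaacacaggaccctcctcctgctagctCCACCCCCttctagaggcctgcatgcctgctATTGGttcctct
Ddx47, chr6:135011362-135011611, plus strand: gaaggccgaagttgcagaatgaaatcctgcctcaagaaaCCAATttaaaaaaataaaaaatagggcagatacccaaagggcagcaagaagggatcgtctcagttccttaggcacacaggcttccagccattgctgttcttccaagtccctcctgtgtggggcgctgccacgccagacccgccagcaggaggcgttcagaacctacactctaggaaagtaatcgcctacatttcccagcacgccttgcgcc
Haus5, chr7:30664995-30665244, minus strand: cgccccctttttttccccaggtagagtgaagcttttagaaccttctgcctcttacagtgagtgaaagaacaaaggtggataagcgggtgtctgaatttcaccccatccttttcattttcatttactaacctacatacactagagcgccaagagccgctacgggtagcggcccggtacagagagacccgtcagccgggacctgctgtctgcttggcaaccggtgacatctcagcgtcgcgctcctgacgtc
Smyd5 and Tmem231 each held 1 GGGNGTGG match, while Rapgef1, Ddx47 and Haus5 held 0. CACCC, which was not among the marked motifs, had 2 matches each in Smyd5 and Haus5, 1 each in Rapgef1 and Tmem231, and 0 in Ddx47. No match says only that these letters are absent from the stretch.

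The lists held 14822 to 21895 peaks on these chromosomes, and the lowest local background, an index of depth, ran from 1.5 to 2.67 tags per kb. The second 0h library had the lowest background, with 2.23 to 2.67 tags per kb in the others, so a missing peak says least there. Of 8 genes typical of myeloid leukaemia cells, 3 to 6 had a peak within 1 kb of an end in each list, and Csf1r and Mpo had none in any. The B lineage, T lineage, erythroid and endothelial markers checked had 0 such peaks in every list, and of 3 stromal markers Col1a1 had a peak with its own summit this close in 2 of the 8 libraries.

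The regions were spread over all numbers of lists allowed. A peak was present in 2 lists at 467 regions, in 3 at 343, in 4 at 345, in 5 at 378 and in 6 at 492. Just outside these limits, 961 gene-end regions were called in 1 list and 888 in 7, and 6125 were called in all 8. The median of the highest fold enrichment per region, the linear ratio of pile-up to local background that the authors' peak caller gave, was 6.16 at 2 lists and 8.95 at 6 lists, against 5.05 at 1 list, 10.0 at 7 and 13.4 at 8. Over all 2025 regions the highest fold ran from 3.57 to 14.9. Their width ran from 146 to 1754 bp, with a median of 484 bp. The summit lay at a median of 109 bp from the gene end, with 972 regions within 100 bp; 71 regions lay 900 to 1000 bp away, and 67 regions in 2 to 6 lists lay 1000 to 1100 bp away.

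Among regions near genes of known strand, those called in some libraries lay at a gene 3′ end more often than those called in every library. The summit was nearest to a 3′ end in 217 of 1582 regions, 13.7% (95% Wilson interval 12.1% to 15.5%), against 70 of 5057 regions called in all 8 lists, 1.38% (1.10% to 1.75%). The share was lower at each further list, being 19.9% at 2 lists, 16.4% at 3, 13.5% at 4, 11.9% at 5 and 7.35% at 6. It was 26.7% in regions called in 1 list and 5.64% in those called in 7. The intervals cover counting error only. An annotated transcript start of any gene lay within 1 kb of the summit in 14 of the 217 regions at 3′ ends, 6.45%. Of these 217 regions 64, 29.5%, belonged to a gene that also had a region called in all 8 lists at an end. Of the 1365 regions at gene starts 24 did, 1.76%. Regions in all 8 lists lay at 4987 starts and 70 3′ ends, which partly sets this contrast. The same 2 shares were 30% and 1.49% for regions in 7 lists, and 36.8% and 9.06% for those in 1. The share at 3′ ends was 6.76% when a peak had to cover at least 50% of the region, 8.42% with a limit of 500 bp to the gene end, 10.4% with lists of equal length and 19.5% with a limit of 2 kb.

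Examples at 3′ ends were Ung, Anxa5 and Bad. The Ung region, at the gene of the uracil-DNA glycosylase of base excision repair, lay 61 bp from the 3′ end (chr5:114139077-114139472) and had a fold of 8.16 and 7.90 in the 6h libraries and no peak in the other 6. The Anxa5 region, at the gene of a phosphatidylserine-binding protein, lay 555 bp from the 3′ end (chr3:36449365-36449770), with a fold of 7.88 and 7.04 at 0h, 5.46 and 4.78 at 6h and no peak at 12h or 24h. The Bad region, at the gene of a pro-apoptotic BCL2 family protein, lay 319 bp from the 3′ end (chr19:6951098-6952307). Its fold was 9.39 in the first 0h library, 7.04 in the first 6h library, 7.76 and 8.70 at 12h and 9.29 and 8.08 at 24h. It had no peak in the second 0h or the second 6h library, so the calls split the libraries of 2 times.

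Promoter sequence also differed between the classes. The summit fell in a RefSeq window, 250 bases before to 50 bases after a start, in 858 of the 2025 regions and in 4071 of the 6125 called in all 8 lists. The CpG ratio is the number of CpG dinucleotides over that given by the C and G content. It was under 0.6 in 275 of 858 windows, 32.1% (29.0% to 35.2%), against 423 of 4071 windows of regions called in all lists, 10.4% (9.49% to 11.4%), and 51.9% of all 21045 windows. It was 19.7% in regions called in 7 lists and 52.2% in those called in 1, and 19.4% for regions in 2 to 6 lists when a peak had to cover at least 50% of the region. The median window held 18 CpG in the 858 and 24 in the 4071, and the median GC content was 59.3% and 63.3%. The GC box GGGCGG, which SP and KLF factors bind, was in 61.2% of the 858 windows, 77.6% of the 4071 and 46.7% of all windows. The NRF1 site was in 6.41%, 15.6% and 6.44% of the same sets, and CCAAT in 34.6%, 46.7% and 38.5%. The KLF motif GGGNGTGG, which can overlap CACCC, was in 22.4%, 27.6% and 19.6%, and CACCC itself in 63.9%, 62.2% and 59.8%. The ETS motif CCGGAAGT was in 7.81%, 11.1% and 5.20%, the CRE motif TGACGTCA in 4.31%, 4.32% and 2.26%, and the AP-1 motif TGANTCA in 6.41%, 3.27% and 7.04%. These shares describe letters in a window and were not tested.

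**Figure D1:**
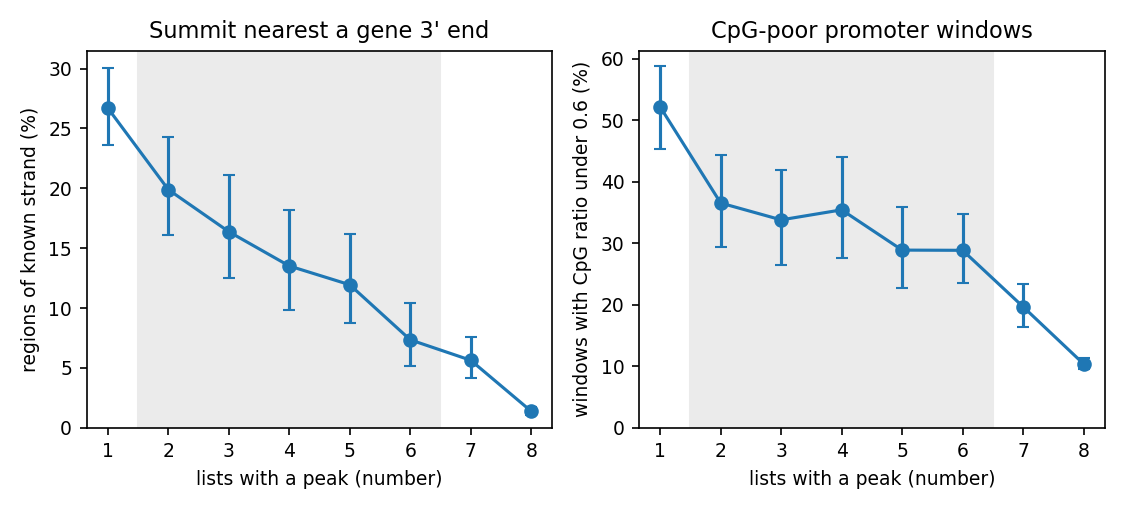
Share of gene-end regions (%) at a gene 3′ end, left, and share of promoter windows (%) with a CpG ratio under 0.6, right, against the number of lists with a peak; bars are 95% Wilson intervals and the grey band marks 2 to 6 lists. The share at 3′ ends is 19.9% at 2 lists and 7.35% at 6, against 1.38% at 8 lists.

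How many of the 2025 regions a library held moved with the length of its list. At 0h the first library called 1445 and the second 526. At 6h the libraries called 955 and 1104, at 12h 1431 and 1247, and at 24h 704 and 773. The 0h libraries lay at both extremes of the series, and those of 24h were below those of 6h and 12h. Their peaks made up 6.67% and 3.4% of the 0h lists, 5.57% and 6.15% of the 6h lists, 6.60% and 6.36% of the 12h lists, and 4.69% and 5.23% of the 24h lists. Over the 8 libraries the number called had a Pearson correlation of 0.95 with the length of the list and 0.76 with the lowest background, given as a description since all 3 share the same reads. The part of depth in the calls was not tested.

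No trend with hours passed the threshold of 0.05. The number called had a Pearson's r of -0.26 (p = 0.51 by exact permutation, 0.76 adjusted, n = 8) and a Spearman's rho of -0.20 (p = 0.67 by exact permutation, 0.67 adjusted). The percentage of the list had an r of -0.07 (p = 0.89 by exact permutation, 0.89 adjusted, n = 8) and a rho of -0.20 (p = 0.67 by exact permutation, 0.67 adjusted). The median percentile of fold of the member peaks within their list ran from 21.6 to 33.6, with an r of -0.70 (p = 0.050 by exact permutation, 0.15 adjusted, n = 8) and a rho of -0.49 (p = 0.25 by exact permutation, 0.67 adjusted). P-values were two-sided over all arrangements of the times and adjusted over 3 measures. Without the 24h libraries, which lie farthest from the median time, r was 0.46, 0.52 and -0.01 for these measures, so their directions or sizes rest on 24h. With lists of equal length r was 0.49 for the number called.

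**Figure D2:**
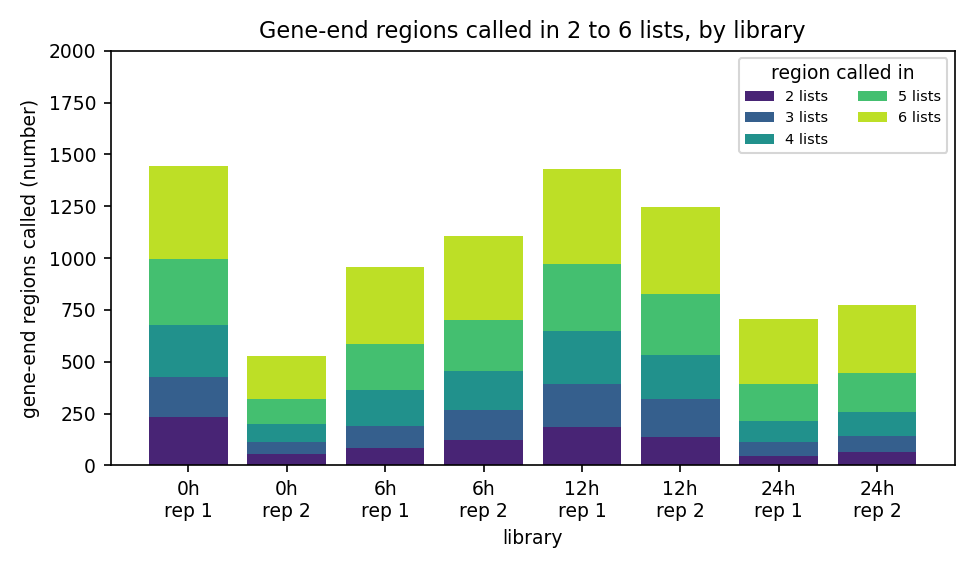
Number of gene-end regions called in 2 to 6 lists that each library holds, coloured by the number of lists of the region. The first 0h library (1445 regions) and the first 12h library (1431) stand highest and the second 0h library (526) lowest.

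At most regions the libraries of at least 1 time disagreed. The limit on lists sets part of this, since the 343 regions in 3 lists and the 378 in 5 must split a time. In 1834 of the 2025 regions, 90.6%, at least 1 time had a peak in 1 of its 2 libraries, and 191, 9.43%, had a peak in both or neither library of every time, against 1201 of the 10077 distal regions in 2 to 6 lists, 11.9%. The 0h pair split most often, at 1167 regions, against 969 at 6h, 814 at 12h and 843 at 24h. Among the 492 regions called in 6 lists, 288 lacked a peak in the second 0h library and 40 in the first. The 24h libraries lacked 178 and 163 of these 492, and the 12h libraries 32 and 70. The most frequent missing pair was the second 0h library with the first 24h library, at 76 regions, while the 24h pair was missing together at 39. Of the 467 regions called in 2 lists, 85 joined libraries of the same time and 382 joined libraries of different times. Per pair of libraries, the mean was higher within a time, at 21.25 regions (5 to 42) against 15.9 (1 to 68) between times. The ranges overlapped, and this contrast was not tested. The commonest pair was the first 0h with the first 12h library, at 68.

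Libraries of 1 time shared slightly more of these regions than libraries of different times, within the range that arrangements of the libraries give. The Jaccard index, the regions called in both libraries over those called in either, averaged 0.356 in the 4 pairs of 1 time and 0.330 in the 24 other pairs, a difference of 0.0258 (exact permutation, one-sided p = 0.057; the design can reach 0.0095). The same-time pairs ran from 0.256 at 0h to 0.534 at 12h, and the other pairs from 0.152 to 0.564. Without the first or the second 12h library the difference turned to -0.0118 and -0.0233, and without the first 0h library it was 0.0919 (exact permutation p = 0.0095). With lists of equal length it was 0.0252 (exact permutation p = 0.019). The other settings missed the threshold. The difference was 0.0158 with a −log10 q of at least 5 (exact permutation p = 0.25) and 0.0035 with a cover of at least 50% (exact permutation p = 0.47). It was 0.0223 at 500 bp, 0.0260 at 2 kb and 0.0316 with 3 to 5 lists (exact permutation p = 0.076, 0.057 and 0.067). With the replicate number as a block the exact permutation p was 0.17.

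Distal regions called in 2 to 6 lists had summits farther than 1 kb from any gene end. With the lists as deposited they showed a larger same-time difference, which did not hold in every setting. Their index averaged 0.310 over same-time pairs and 0.267 over other pairs, a difference of 0.043 (one-sided exact permutation p = 0.019). The difference for gene-end regions was smaller than that for distal regions, with a gap of -0.0172 (two-sided exact permutation p = 0.029). This gap missed the threshold with lists of equal length, at -0.0122 (exact permutation p = 0.076), and turned to 0.0216 without the first 0h library (exact permutation p = 0.23). It also missed it with 3 to 5 lists, at -0.0169, and with the replicate number as a block (exact permutation p = 0.076 and 0.083). It passed with a −log10 q of at least 5, at -0.0354, and with limits of 500 bp and 2 kb (exact permutation p = 0.0095 each). It passed too with a cover of at least 50%, at -0.0282, and without the second 0h library, at -0.0204 (exact permutation p = 0.029 each). Without the libraries of 6h, 12h or 24h in turn it ran from -0.029 to -0.0153, and none of these passed (exact permutation p from 0.15 to 0.35).

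**Figure D3:**
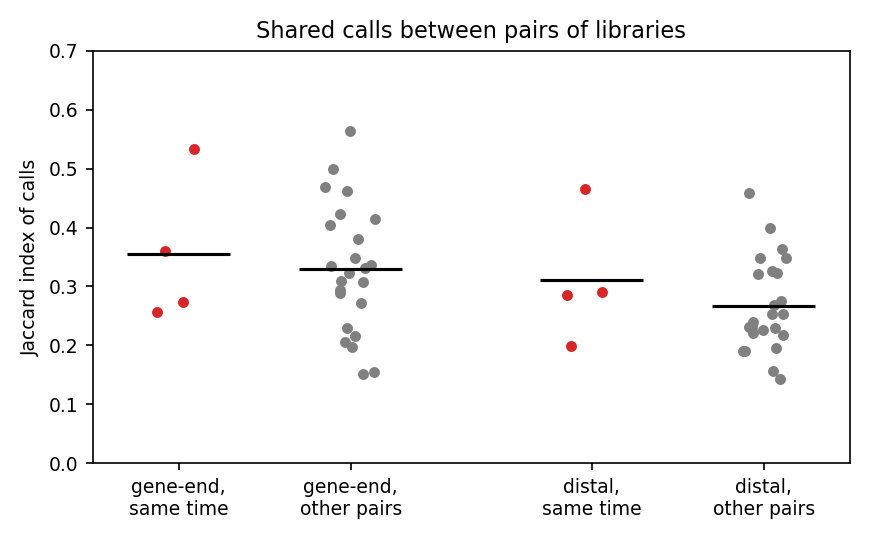
Jaccard index of calls for each pair of libraries, over gene-end and over distal regions called in 2 to 6 lists; red points are the 4 pairs of 1 time, grey points the 24 other pairs, and lines the means. The means are 0.356 and 0.330 for gene-end regions and 0.310 and 0.267 for distal regions.

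Within a library, peaks at gene-end regions were somewhat wider than peaks at distal regions that pass the same limit on lists. Their median width was 206 to 378 bp over the libraries, against 188 to 343 bp for distal regions, a mean difference of 36.4 ± 9.1 bp that was positive in 8 of 8 libraries (SD, n = 8; exact sign-flip permutation p = 0.0078, adjusted p = 0.012). Fold helped to choose the summit of each region, so peak strength is given as a description: the fold percentile within the list was higher by 1.84 ± 1.17 points, in 8 of 8 libraries, and that of −log10 q by 2.42 ± 1.40 points, in 7 of 8 (SD, n = 8). The libraries see the same regions, so the p-value speaks of libraries and not of other regions. The fold difference was -0.0445 points with a limit of 2 kb. The 2 kinds also differ in their mix of list numbers. Of the 2025 gene-end regions 467 were in 2 lists and 492 in 6, against 3319 and 1372 of the 10077 distal ones. With 3 to 5 lists the differences were 27.6 bp in width, 0.837 points in fold percentile and 0.914 in −log10 q percentile. The part of this mix in the differences was not tested. Both kinds were weak beside gene-end regions called in all 8 lists: the median pile-up, the tags over the summit, was 7.0 to 12 for the 2025 regions and 7.0 to 11 for distal ones, against 15 to 34.

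A region counted as gained where both libraries of a later time, but no 0h library, held a peak, and as lost where the opposite held. With 4 libraries per comparison and 3 ways to split them, no p under 0.05 can be reached and none is given. Gained and lost gene-end regions must lie in 2 to 6 lists, so the rule holds all of them. Their share is therefore set beside that of distal regions in 2 to 6 lists.

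At 6h, 108 gene-end regions were gained and 93 lost. Background percentages over all 32720 regions were 1.85% gained and 2.34% lost. Among the 2025 regions this is 5.33% gained and 4.59% lost, against 4.92% and 6.69% of the distal regions. Without the first 0h library 419 were gained, and without the first or the second 6h library 238 and 210. Without the second 0h library 357 were lost, and without the first or the second 6h library 193 and 205. With lists of equal length 120 of 1755 gene-end regions were gained and 84 lost, among them 46 of the 108 and 45 of the 93. Of the 6869 distal regions at equal length, 461 were gained and 493 lost.

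Leading gained regions at 6h lay at the starts of Dhx36 and Rapgef1. Dhx36, a helicase that unwinds G-quadruplexes, had a fold of 13.7 and 12.7 at 6h, 9.65 in the second 12h library and 11.9 and 11 at 24h, and no peak at 0h or in the first 12h library. Rapgef1, an exchange factor for the small GTPase Rap1, had a region 115 bp from its start (chr2:29619514-29619760) with a fold of 7.70 and 10.2 in the 6h pair, 6.82 and 8.64 in the 12h pair and 7.48 and 10.1 in the 24h pair, and none at 0h. Its pile-up was 14 and 20 tags in the 6h pair, 15 and 18 in the 12h pair and 14 and 20 in the 24h pair. All 6 later libraries thus stood apart from both 0h libraries at Rapgef1.

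Leading lost regions at 6h lay at the starts of Tpd52l1, Scnn1g and Mrpl11, and all came back at 12h. Scnn1g, a subunit of the epithelial sodium channel, had no peak at 6h, against 9.61 and 8.16 at 0h, and had 7.66 and 5.89 at 12h and 9.0 in the second 24h library. Mrpl11, a protein of the mitochondrial ribosome (chr19:4961880-4962552), had no peak at 6h, against 8.31 and 9.10 at 0h, and had 9.61 and 8.15 at 12h and 6.86 and 8.71 at 24h. Mrpl11 was thus missing at 6h only. Tpd52l1 had 8.41 and 7.88 at 12h, against 11.4 and 9.07 at 0h, and no peak at 6h or 24h.

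At 12h, 192 gene-end regions were gained and 58 lost. Background percentages over all 32720 regions were 4.03% gained and 1.45% lost. Among the 2025 regions this is 9.48% gained and 2.86% lost, against 11.2% and 4.14% of the distal regions. Gained regions made up 76.8% of the changed gene-end regions as deposited and 55.5% with lists of equal length. That setting gave 122 gained and 98 lost among 1755 gene-end regions, among them 46 of the 192 and 24 of the 58. Of the changed distal regions 73.0% were gained as deposited and 53.5% at equal length, with 539 gained and 469 lost among 6869. Without the first 0h library 694 gene-end regions were gained, and without the second 12h library 313. Without the second 0h library 201 were lost, and without the first or the second 12h library 155 and 117.

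The leading gained regions at 12h lay at Gm13277, a predicted gene, and at Commd4 and Mmp8. The Gm13277 region (chr4:88788410-88788667) had a fold of 14.9 and 9.37 at 12h and 8.19 in the first 6h library. Commd4 (chr9:57158117-57158543) had a fold of 9.70 and 10.5 at 12h, 7.73 in the first 6h library and 5.75 in the first 24h library. Both thus had peaks in 1 of the 6h libraries. The Mmp8 region, at the gene of the neutrophil collagenase, 928 bp from its 3′ end (chr9:7567331-7567652), had 6.49 and 6.42 in the 6h pair, 9.22 and 10.8 in the 12h pair and 7.32 and 9.84 in the 24h pair, and no peak at 0h.

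The lost regions at 12h were led by the starts of Yae1d1 and 1110051M20Rik and by an end of Fam168b. The Yae1d1 region (chr13:17993061-17993579) had no peak at 12h, against 9.32 and 8.69 at 0h, with 8.55 in the second 6h library and 7.40 and 7.56 at 24h. That of 1110051M20Rik (chr2:91444463-91444765) had none at 12h or 24h, against 9.26 and 7.98 at 0h, and 7.80 in the first 6h library. Fam168b (chr1:34842721-34843290) had none at 12h, against 10.00 and 6.28 at 0h, with 7.21 in the first 6h library and 5.89 and 9.08 at 24h. The regions at Yae1d1 and Fam168b were called again in both 24h libraries.

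At 24h, 74 gene-end regions were gained and 185 lost. Background percentages over all 32720 regions were 1.12% gained and 4.43% lost. Among the 2025 regions this is 3.65% gained and 9.14% lost, against 2.91% and 12.6% of the distal regions. Gained regions made up 28.6% of the changed gene-end regions as deposited, but 65.6% with lists of equal length. That setting gave 202 gained and 106 lost among 1755 gene-end regions. Of the changed distal regions 18.8% were gained as deposited and 44.9% at equal length, with 516 gained and 633 lost among 6869. Of the 74 gained gene-end regions 70 were also gained at equal length, and 102 of the 185 lost ones were also lost. A region gained only at equal length can hold a deposited 0h peak that the shortening removed. Without the first 0h library 259 were gained, and without the first or the second 24h library 181 and 157. Without the second 0h library 610 were lost, and without the second 24h library 281.

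Besides Dhx36, gained regions at 24h were led by ends of Cbx2 and Ttc39b. Cbx2, which encodes a Polycomb protein that reads histone H3 lysine methylation, had a fold of 8.38 and 7.28 in the 6h pair, 7.84 and 9.29 in the 12h pair and 8.41 and 11.6 in the 24h pair, with a pile-up of 10 to 19 tags and no peak at 0h. Ttc39b (chr4:83324026-83324429) had a fold of 9.73 and 9.56 at 24h, 6.88 in the first 6h library and 7.05 and 6.81 at 12h. Promoter windows of gained regions held the GC box more often than those of lost ones, in 78% of 41 against 55.7% of 88 windows, and GGGNGTGG in 24.4% against 20.5%. At 6h the GC box was in 76.6% of 47 windows of gained regions and 53.5% of 43 windows of lost ones, and GGGNGTGG in 25.5% and 27.9%. At 12h the GC box was in 67.1% of 82 and 52% of 25 windows, and GGGNGTGG in 25.6% and 28%. GGGNGTGG was thus more frequent in gained regions at 24h and in lost regions at 6h and 12h. CACCC did not switch in this way. Its 6h shares were 66.0% of gained against 62.8% of lost windows. The 12h shares were 73.2% against 60%, and the 24h shares 82.9% against 60.2%. CACCC was thus higher in gained regions each time, and none of the shares in this paragraph was tested.

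Lost regions at 24h were led by starts of Zfp169, Ddx47 and Tpd52l1. Zfp169, a zinc-finger gene, had no peak at 24h, against a fold of 11.2 and 11.7 at 0h, with 11 in the first 6h library and 10.00 and 8.58 at 12h. Ddx47, an RNA helicase of ribosome production (chr6:135011311-135011688), had none at 24h, against 10.8 and 10.3 at 0h, with 9.80 in the second 6h library and 9.67 and 12.7 at 12h. Its pile-up was 23 and 14 tags at 0h, 17 in the second 6h library and 21 and 24 at 12h. Both regions lacked a peak in 1 of the 6h libraries, so the loss at 24h was not their only absence.

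**Figure D4:**
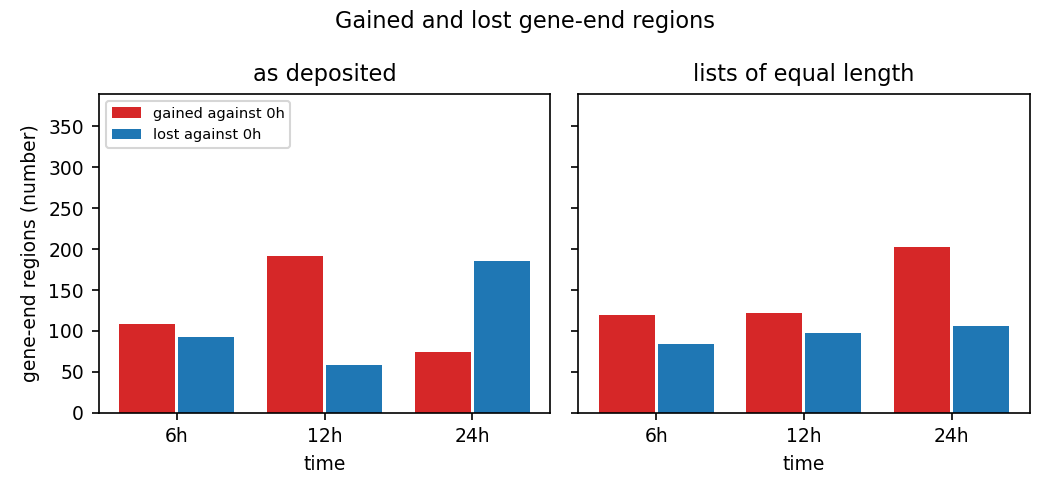
Number of gene-end regions gained and lost against 0h at 6h, 12h and 24h, with the lists as deposited, left, and with lists of equal length, right. At 24h there are 74 gained and 185 lost of 2025 regions as deposited, and 202 gained and 106 lost of 1755 at equal length.

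Few regions parted whole times from each other. A peak in each of the 6 later libraries and in no 0h library marked 20 regions, 0.988% of the 2025, against 0.675% of the distal regions and a background of 0.269% of all regions. Besides Cbx2 and Rapgef1 they were led by Smyd5, a protein of the SET and MYND family of methyltransferases (chr6:85431849-85432251), whose summit lay at the start itself. The Smyd5 fold was 7.65 and 8.76 in the 6h pair, 8.66 and 8.88 in the 12h pair and 10.3 and 7.43 in the 24h pair. Its pile-up was 11 and 14 tags in the 6h pair, 15 and 15 in the 12h pair and 16 and 11 in the 24h pair.

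A peak in the pair from 0h and in no later library marked 22 regions, 1.09% of the 2025, against 1.77% of distal regions and a background of 0.611%. They were led by Kcne3, a potassium channel subunit, with a fold of 6.14 and 8.07 at 0h, Plpp1, a lipid phosphatase, with 6.72 and 6.89, and Aoc1, a diamine oxidase, with 7.01 and 6.67. Their pile-up was 7 to 12 tags at 0h.

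A peak in every library up to 12h and in none of 24h marked 39 regions, 1.93% of the 2025, against 1.91% of distal regions and a background of 0.706%. Tmem231, a protein of the ciliary transition zone (chr8:111933542-111934069), had a fold of 8.83 and 9.96 in the 0h pair, 6.87 and 12.7 in the 6h pair and 14 and 12.7 in the 12h pair. Its pile-up reached 28 and 24 tags at 12h, and no peak was called at 24h. Castor2, a regulator of mTORC1, had 9.33 and 7.62 in the 0h pair, 9.66 and 10.1 in the 6h pair and 12.1 and 10.5 in the 12h pair. Fan1, a nuclease of DNA crosslink repair, had 8.14 and 10.0 in the 0h pair, 11.1 and 9.97 in the 6h pair and 7.02 and 9.36 in the 12h pair. The same pattern held for Prim1, the catalytic subunit of DNA primase, with folds of 6.34 to 8.33 in the 6 libraries.

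Regions of 0h and 6h only numbered 4 (background 0.122%), and those of 12h and 24h only numbered 6 (background 0.138%). They made up 0.198% and 0.296% of the 2025 regions, against 0.357% and 0.387% of distal regions. Napb, a protein of vesicle fusion, had 11.6 and 9.66 at 6h and 9.82 and 6.19 at 0h. Nfkb1, a subunit of NF-kB, had a region 480 bp from an end (chr3:135691388-135691894), with 6.67 and 6.54 at 6h and 5.69 and 6.22 at 0h. Both had no peak from 12h on. Chmp4c, a subunit of the ESCRT-III membrane scission complex, had 10.4 and 6.53 at 12h and 6.98 and 9.86 at 24h. Evpl, a protein linking desmosomes to filaments, had 7.21 and 5.75 at 12h and 8.58 and 6.70 at 24h.

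Regions called in both libraries of 1 time only were most frequent at 12h, the time with the longest pair of lists. There were 16 at 6h (background 0.315%), 42 at 12h (background 1.23%) and 5 at 24h (background 0.0886%). They made up 0.79%, 2.07% and 0.247% of the 2025 regions, against 0.863%, 3.58% and 0.238% of distal regions. Haus5, a subunit of the augmin complex of the spindle, had a region 4 bp from its start (chr7:30664861-30665076) with 8.87 and 10.6 at 12h. Casp8, the initiator caspase of death receptors, had one 192 bp from its start (chr1:58795321-58795664) with 7.69 and 8.14 at 12h. Prss21, a serine protease gene, had 7.49 and 8.03 at 6h, and Pilrb1, an activating receptor of myeloid cells, had 5.46 and 8.69 at 24h. These regions had a pile-up of 7 to 16 tags where called.

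**Figure D5:**
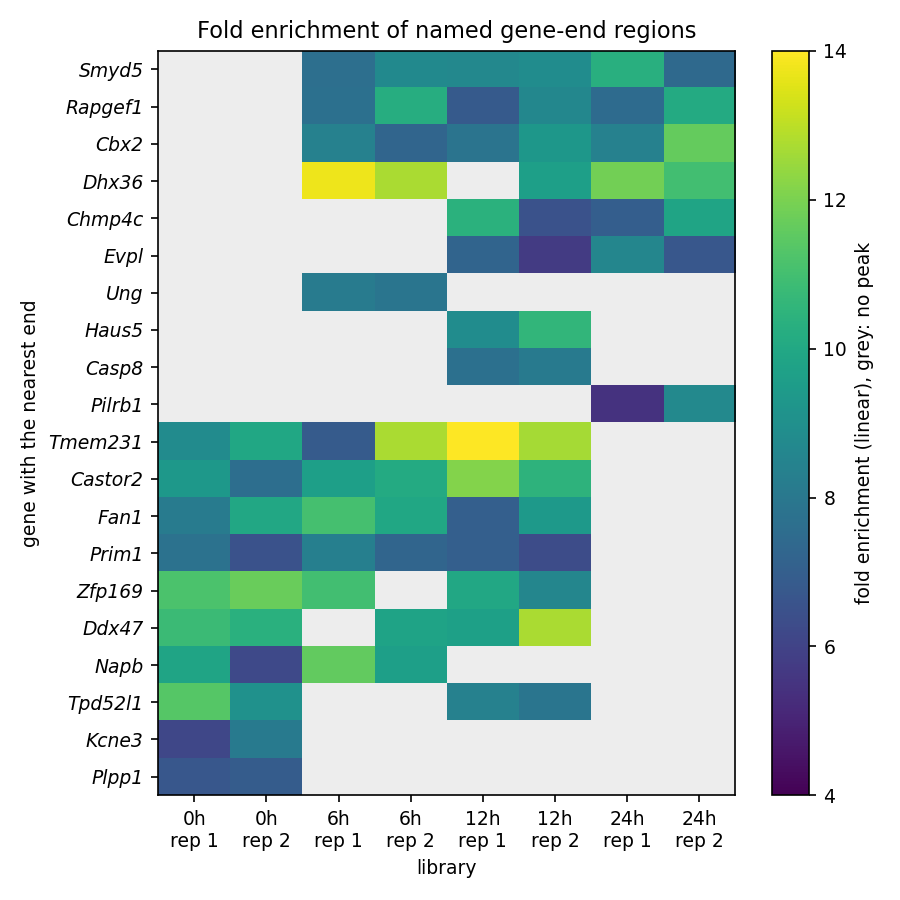
Fold enrichment (colour, linear) of 20 named gene-end regions in each library, with grey where no peak was called; rows are grouped by call pattern. Smyd5, Rapgef1 and Cbx2 are filled in all 6 later libraries and empty at 0h, and Tmem231, Castor2, Fan1 and Prim1 are empty at 24h only.

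Among the 3 regions of highest fold percentile in 2 lists and the 3 in 6 lists, Haus5, described above, had its peaks in the 12h pair, and the other 5 split the libraries of at least 1 time. In 2 lists, Ddx52, a helicase of ribosome production, had 11.3 in the first 0h library and 10.1 in the second 12h library, and Cyp4f13 had 9.01 in the first 6h library and 10.5 in the first 12h library. In 6 lists, Slc25a20, the carnitine carrier of mitochondria (chr9:108661830-108662344), had 12.1 in the first 0h library, 9.01 and 14.7 at 6h, 14.1 and 11.3 at 12h and 12.3 in the second 24h library. Zc3h11a, a protein of mRNA export, and Ttll12 lacked a peak in the second 0h and the second 24h library, with folds of 8.46 to 12.7 and 7.07 to 13.9 elsewhere. All 3 thus lacked the second 0h library and 1 library of 24h.

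Of 21631 protein-coding genes, 1967 had such a region at an end, 9.09%, and 9436 had a region of any kind, of which the 1967 are 20.8%. Of the 1967 genes 58 had 2, among them Agap2, Arap1, B4galt7, Bean1 and Afmid. Lists of genes by function are described beside these shares and were not tested; members of a list can share regulation.

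Genes of myeloid cells had such regions more often than that share, as did some lists of few measured genes from other lineages. Of 13 monocyte and macrophage genes with a region at an end, 7 had one, 53.8%, and of 11 neutrophil and granule genes 6 had one, 54.5%. Among them, Adgre1, which encodes F4/80, had a fold of 6.58 and 5.77 at 0h, 4.83 in the first 6h library and 6.77 in the second 12h library. Cx3cr1, the fractalkine receptor, had a region 1 bp from its start with 6.98 in the first 0h and 5.15 in the second 12h library. Ngp, a neutrophil granule protein, had 7.41 in the second 6h library, 6.01 in the first 12h library and 6.33 in the first 24h library. Gfi1, a repressor needed for neutrophil development, had 6.49 in the first 0h library, 6.00 and 5.25 at 6h, 4.78 in the second 12h library and 4.39 in the first 24h library. Apart from that of Mmp8, the regions named here split the libraries of at least 1 time.

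Inflammatory and immediate early genes were similar. Of 14 inflammatory and NF-kB genes with a region, 7 had one, 50.0%, and of 16 immediate early genes 6 had one, 37.5%. Tnf, a cytokine of macrophages (chr17:35201756-35202283), had 6.62 in the second 0h library, 6.79 in the second 12h library and 6.94 and 5.75 at 24h. Ccl4, a chemokine, had 5.88 in the first 0h and 6.68 in the first 12h library. Nr4a1, an orphan nuclear receptor, had 6.28 in the first 0h library, 6.5 and 5.79 at 12h and 5.27 and 5.82 at 24h. Fosl1, an AP-1 subunit, and Ier3 lacked a peak in the second 0h and the first 6h library, with folds of 4.14 to 8.08 and 4.25 to 6.38 elsewhere.

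Of 18 self-renewal genes linked to MLL-AF9 with a region at an end 5 had one, 27.8%. Kit, the receptor of stem cell factor, had a region 13 bp from its start (chr5:75574858-75575760) with 10.4 in the first 0h library, 5.40 and 5.78 at 6h, 8.59 and 6.06 at 12h and no peak at 24h. Its pile-up was 22 tags in the first 0h library, 7 and 8 at 6h, and 16 and 9 at 12h. Meis1, the cofactor of HOXA9, had 4.21 in the first 0h library, 6.61 in the first 6h library, 8.39 and 7.35 at 12h and 6.23 and 6.85 at 24h. Zeb2, a repressor of the zinc-finger family, had a peak in 1 library of each time, with folds of 4.90 to 7.23. Kit lacked a peak in both 24h libraries and the second 0h library, so 0h was split there.

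Genes of basic cell functions mostly had regions in 7 or 8 lists instead. Such a region was at an end of 22 of 30 cytoplasmic ribosomal protein genes, 22 of 28 DNA replication genes and 18 of 24 proteasome genes, against 6957 of 21631 genes. Regions in 2 to 6 lists were at 2, 2 and 3 of them, which is 8.70%, 8.70% and 14.3% of those with a region. Psmc1, an ATPase of the proteasome, had 9.01 in the first 0h library, 5.87 in the second 6h library, 7.44 and 6.45 at 12h and 5.38 and 5.93 at 24h. Rpl8 lacked a peak in the first libraries of 6h and 12h and in the second of 24h. The cell cycle list had 4 of 25 genes with a region, 16.0%, with E2f2, a factor of S-phase entry, at 5.12 to 7.63, and Aurkb, a mitotic kinase, at 4.98 to 6.70 in 6 lists. The apoptosis list had 5 of 19, 26.3%, with Casp8 and Bad among them.

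Chromatin and helicase lists lay near the share of all genes. Of 20 Polycomb group genes with a region, 3 had one, 15%: Cbx2, Pcgf5 and Bmi1. Pcgf5 (chr19:36348186-36348565) had 5.05 and 5.89 at 6h, 7.30 and 6.74 at 12h and 6.81 in the second 24h library, and no peak at 0h. Of 24 DEAD and DEAH box helicase genes 5 had one, 20.8%. Of 15 KLF and SP genes with a region, 0 had one, and 14 had a region in 7 or 8 lists. Of 10 interferon response genes 2 had one, with Irf7, a factor of interferon induction, at 4.83 to 7.25 in 5 lists, and Usp18 at 6.02 and 8.11 in 2.

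Genes of other lineages rarely had a region of any kind: 1 of 12 B lineage, 3 of 14 T and NK lineage, 4 of 18 erythroid and megakaryocyte, 1 of 16 stromal and endothelial and 2 of 15 pluripotency and epithelial genes had one. Of those with a region, 0 of 1, 2 of 3, 1 of 4, 1 of 1 and 1 of 2 had one in 2 to 6 lists, so shares as high as the myeloid ones occur there on very few genes. Of 12 B lineage genes 0 had a region in 2 to 6 lists, and of 18 erythroid and megakaryocyte genes 1 had one, Tal1, with 6.43 in the first 0h and 4.58 in the first 6h library. Of 14 T and NK lineage genes 2 had one: Tcf7, with 6.14 in the first 6h and 6.68 in the second 24h library, and Bcl11b, in 4 lists. The stromal gene Col1a1 had a region 959 bp from an end in 6 lists, with folds of 4.84 to 6.31, and the pluripotency factor gene Tfcp2l1 had one in 3 lists. Olig2 was the 1 gene of 30 Polycomb-bound developmental factors with such a region, with 4.97 in the first 0h and 4.05 in the first 12h library.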

How the data were processed

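Per the submitters' processing notes, the authors used BWA, SAMtools and MACS2 with mm10; versions, settings, transposase shift and duplicate handling were not given in the sources used here. Peaks were deposited as 1 list for each library. Each list gives, per the deposited narrowPeak format, a linear fold enrichment ratio, a −log10 p and a −log10 q of at least 2.00, and an integer score, which was not used. These per-peak values are the authors' and describe peaks within their list; folds depend on depth. Read totals were not used here. Pile-up and local background were recovered from fold and −log10 p within a tolerance of 0.001 for 99.8% to 99.9% of peaks.

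Groups and replicate numbers came from the labels. Regions, calls, tests and alternatives were computed in Python 3.11.15 with NumPy 2.4.6, pandas 2.3.3 and SciPy 1.17.1, and tested on simulated lists. Genes came from RefSeq on GRCm38.p6, 21631 protein-coding, of which 17274 had a strand through the promoter table. A region was given to the gene with the nearest end, and a member with several peaks in a list was given its peak of highest fold. Artefact-prone sequence was not filtered. Named regions followed a rule: the 3 gained and 3 lost regions per time with the highest mean percentile of fold, up to 3 per call pattern and gene list, the genes with most regions, and the top of 2 and of 6 lists. Of 444 list entries 443 matched a symbol. Members, lists and rules were chosen with earlier results of these data known; the CCAAT motif, the CpG threshold and the shares at 3′ ends were added after seeing the data. A few regions selected this way are not reported here.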

Additional observations from a re-analysis of the deposited data

How the results depend on the processing

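The settings changed in turn were a −log10 q limit of 5, equal list length, limits of 500 bp and 2 kb, 3 to 5 lists, a cover of at least 50%, and each library left out. The number of regions was 1066 with 3 to 5 lists, 4662 with a cover of 50% and 2451 to 2756 with 7 lists, where the limit of 6 takes in more by construction. With lists of equal length, the trend in the number called was 0.49 and in the percentage of the list 0.51 (0.11 with a cover of 50%); agreement was 0.0252 and passed, while its gap to distal regions was -0.0122 and missed the threshold; the fold percentile difference was 1.29 points. There, of 1755 gene-end regions, 122 were gained and 98 lost at 12h, and 202 gained and 106 lost at 24h. With 3 to 5 lists the gap was -0.0169 and missed it too, the fold difference was 0.837 and the −log10 q difference 0.914, with 32 lost at 12h and 49 gained at 24h. The fold difference was -0.0445 at 2 kb. With a cover of 50%, 300 were gained at 12h. The cause of these changes was not tested.

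The share at 3′ ends was 10.9% with the stricter q, 10.4% at equal length, 8.42% at 500 bp, 19.5% at 2 kb and 6.76% with a cover of 50%, where 19.4% of windows were CpG-poor. These 2 shares were added after seeing the data. With each library left out, the share at 3′ ends ran from 10.1% to 12.0%, CpG-poor windows from 27.0% to 29.4%, agreement from -0.0233 to 0.0919, its gap to distal regions from -0.029 to 0.0216, the trend in number from -0.73 to -0.05, in percentage from -0.76 to 0.15 and in fold percentile from -0.84 to -0.55. Gained counts ran from 137 to 419 at 6h, 242 to 694 at 12h and 89 to 259 at 24h, and lost counts from 131 to 357, 83 to 201 and 248 to 610. The shares at 3′ ends and of CpG-poor windows used regions chosen anew from 7 lists. The other values with a library left out kept the regions chosen from 8 lists. Their gained and lost counts thus leave out regions called in 1 or 7 of the 8 lists. The difference in width passed in every such case, at 35.1 to 39.0 bp; those in fold and −log10 q percentile were 1.61 to 2.01 and 2.22 to 2.76 points.

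The labels do not say whether libraries of the same replicate number belong together. Over all merged regions the deviations of same-numbered libraries correlated at -0.0129 to 0.005 between times. Of the 32720 regions 9123 were called in 1 list and can deviate at 1 time only, so these values cannot settle a pairing. With the replicate number as a block, the gap to distal regions stayed at -0.0172 but missed the threshold (exact permutation p = 0.083, with 24 divisions). The shallow second 0h library limits every absence at 0h.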
